A study of Mus musculus with 24 samples.

Results

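The genes described here encode proteins of the cytosolic ribosome in 2 tubule segments of the mouse kidney. They were chosen by symbol alone: every gene whose symbol begins with Rpl or Rps and has the form of a ribosomal protein name, and that has a probe set naming no other gene. This gave 45 genes of the 18194 measured, 24 of the large subunit and 21 of the small subunit, and each was read from its brightest probe set. RefSeq lists 80 protein-coding symbols of this form, of which 44 are among the 45; the remaining gene, Rps4l, is listed there as a transcribed pseudogene. The other 36 symbols were not analysed here.

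The study followed gene expression over the day in microdissected tubules from left kidneys of male C57BL/6J mice weighing 25 to 30 g, housed under alternating light and darkness of 12 h each. The DCT/CNT groups held distal convoluted and connecting tubules together, and the CCD groups held cortical collecting ducts. Each segment was sampled at 6 zeitgeber times (ZT, hours after lights on) placed 4 h apart, from ZT0 to ZT20, with 2 RNA pools per segment and time from 5 animals per time, for 24 arrays in all. All groups shared strain, sex, housing and the amplification of 10 ng of RNA. The labels do not say whether the 2 pools of a time hold the same animals, or whether the segments share animals. The p-values of the segment comparison therefore measure the spread between pools, which may be technical. Those of rhythm also take in departures of the time means from the fitted daily curve.

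The cytosolic ribosome joins a large subunit, which forms peptide bonds and passes the new chain through an exit tunnel, to a small subunit, which threads and decodes the mRNA. Most of its proteins are present in a single copy per ribosome, and their mRNAs are among the most abundant of a cell. These mRNAs typically begin with a cytosine and an unbroken stretch of pyrimidines, the terminal oligopyrimidine motif, through which mTOR signalling sets their translation. Several of these genes are used as references in measurements of other mRNAs.

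The start regions of 7 members with a single RefSeq start are shown because these genes had the largest differences each way between the segments or the only rhythm call. Each window runs 5′ to 3′ on the gene's strand from 30 bases before to 20 bases after the RefSeq start of build GRCm38.p6. Capitals mark the longest run of a C followed directly by at least 4 bases that are C or T, found between 10 bases before and 20 bases after the start.
Rps26, chr10:128626487-128626536, minus strand: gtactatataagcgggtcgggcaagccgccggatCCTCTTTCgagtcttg
Rplp2, chr7:141447621-141447670, plus strand: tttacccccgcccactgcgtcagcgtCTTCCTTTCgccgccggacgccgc
Rpl7a, chr2:26910777-26910826, plus strand: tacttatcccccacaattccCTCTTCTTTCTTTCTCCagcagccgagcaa
Rps6, chr4:86857348-86857397, minus strand: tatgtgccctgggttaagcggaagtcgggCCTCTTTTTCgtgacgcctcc
Rpl39l, chr16:10170198-10170247, plus strand: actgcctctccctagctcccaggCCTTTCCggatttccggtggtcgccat
Rps16, chr7:28350659-28350708, plus strand: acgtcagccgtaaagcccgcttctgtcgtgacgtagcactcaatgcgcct
Rpl39, chrX:37085203-37085252, minus strand: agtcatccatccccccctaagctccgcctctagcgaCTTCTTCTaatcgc
Of these 7 genes only Rps16 had no such run in the stretch searched, and in its window a run of this form begins just before that stretch. Promoter sequences of 300 bases were matched by symbol for 39 members, and a run was present for 28 of them (71.8%), against 10698 of 27025 genes (39.6%). The letters CCGGAAG, a core recognised by ETS transcription factors, were found on either strand of the 300 bases for 19 of 39 members (48.7%) and 2683 of 27025 genes (9.93%). Genes with several starts, 7 of them members, were counted when any start held the letters. The other strand of this motif, CTTCCGG, begins with a C and 4 pyrimidines, so the patterns can overlap. These matches describe letters in a window and say nothing of binding.

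The array values were the authors' RMA values on the log2 scale, and every level below is on that scale. Whether DCT/CNT and CCD arrays went through RMA together is not given in the sources used here, and a segment difference in the deposited values could include a difference between runs. A segment difference is the mean level in DCT/CNT minus the mean level in CCD, in log2 units, tested with limma over all 24 arrays and adjusted over all genes with the Benjamini-Hochberg method, and a gene is called at an adjusted p under 0.05. Brightness depends on the probes as well as the transcript, so members are not ranked by abundance. The probe sets of 34 members averaged 10 or more, those of 2 lay between 8 and 10, and those of 9 lay under 8. The dim ones were those of Rpl12, Rpl14, Rpl37, Rpl39, Rpl39l, Rpl3l, Rps16, Rps25 and Rps27. A further 110 probe sets name a ribosomal protein gene together with another symbol and were not used, and 15 members have such a probe set besides their own. The members' near-identical copies elsewhere in the genome can share signal with them, and 12 of the 45 probe sets carry the array maker's mark for probes that may cross-hybridise. Most markers of the labelled segments differed in the direction of the label. Of 9 distal convoluted and connecting tubule markers measured, 8 were called higher and 1 lower in DCT/CNT, against 30.4% and 47.0% of all genes. Of 9 collecting duct principal cell markers, 9 were called lower and 0 higher. After quantile normalisation, described below, the first counts were unchanged and 7 principal cell markers stayed lower. Slc12a3, the sodium chloride cotransporter of the distal convoluted tubule, averaged 10.77 ± 1.24 in DCT/CNT and 5.28 ± 0.48 in CCD (SD, n = 12 each), and Aqp4, a water channel of collecting duct principal cells, averaged 8.16 ± 0.31 in DCT/CNT and 11.63 ± 0.26 in CCD.

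The values were spread less widely on the DCT/CNT arrays, whose interquartile range over all probe sets was 3.49 ± 0.11, than on the CCD arrays, where it was 4.20 ± 0.07 (SD, n = 12 each). Of the 2334 genes averaging 10 or more, 1908 were called lower in DCT/CNT in the deposited values. These genes had a median segment difference of -0.39, all genes one of -0.13, and genes averaging 4 to 6 one of 0.31. Quantile normalisation gives every array the same distribution of values, and after it the median over genes averaging 10 or more was -0.01 and that over all genes 0.04. Segment differences of the members are given on both scalings for this reason.

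In the deposited values 33 of the 45 ribosomal protein genes were lower in DCT/CNT, 3 were higher and 9 were not called. Over all genes 47.0% were called lower in DCT/CNT and 30.4% higher, 77.4% in all. The members' median difference was -0.24, that of the 34 members averaging 10 or more -0.36, against -0.39 for all genes of that brightness. Of these 34 members 29 were lower and 0 higher, against 1908 and 123 of the 2334 genes of that brightness. After quantile normalisation the counts were 19 and 6, against 870 and 820. After quantile normalisation 24 members were lower in DCT/CNT, 9 were higher and 12 were not called, against 29.6% of all genes lower and 36.0% higher (65.6% in all), and the members' median was -0.08. In bulk samples, fewer cells of a type and less RNA per cell cannot be told apart. Of the 33 genes lower in the deposited values, 22 were also called lower after quantile normalisation, 8 lost the call and 3, Rpl27, Rps6 and Rps7, were called higher. Cyclic loess, which evens out the arrays along the range of brightness, gave 20 members lower and 17 higher, against 30.1% and 35.9% of all genes (66.0% in all). Of the 381 genes averaging 12 or more, it gave 87 lower and 224 higher, and of the 24 members among them 9 and 12. All 12 DCT/CNT arrays lay below all 12 CCD arrays for 24 members in the deposited values and for 16 after quantile normalisation, against 19.4% and 6.62% of all genes. They lay above for 1 member in the deposited values, Rpl39l, and for 4 after quantile normalisation, Rpl39, Rpl39l, Rps2 and Rps28, against 8.43% and 8.58% of all genes.

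**Figure D1:**
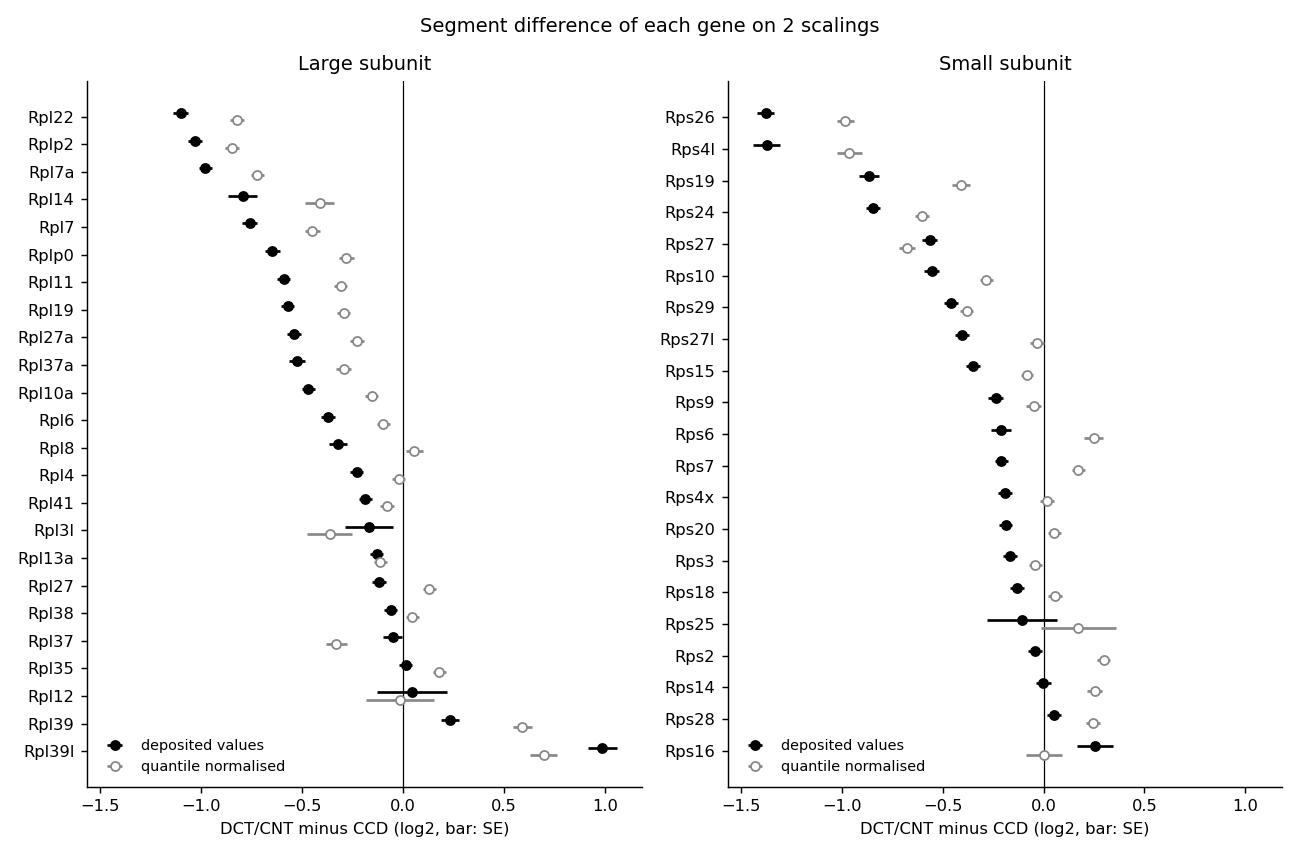
Difference between the segments (DCT/CNT minus CCD, log2 units, horizontal axis, bars are SE of the limma fit) for each gene of the large subunit (left) and the small subunit (right), in the deposited values (filled) and after quantile normalisation (open). Most filled points lie left of 0, and the open points of Rps26, Rps4l, Rpl22, Rplp2 and Rpl7a remain at -0.72 or below.

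The plot of differences against level places the members in the cloud of all genes. In the deposited values the 10 members averaging 10 to 12 had a median difference of -0.50, against -0.43 for the 1953 genes of that range, and the 24 members averaging 12 or more had -0.23, against -0.19 for 381 genes. After quantile normalisation the members' medians were -0.19 and -0.08, against -0.01 and 0.00 for all genes. The fit adjusted for the proximal tubule and thick ascending limb marker lists gave 29 members lower and 2 higher, against 38.4% and 21.3% of all genes in that fit.

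**Figure D2:**
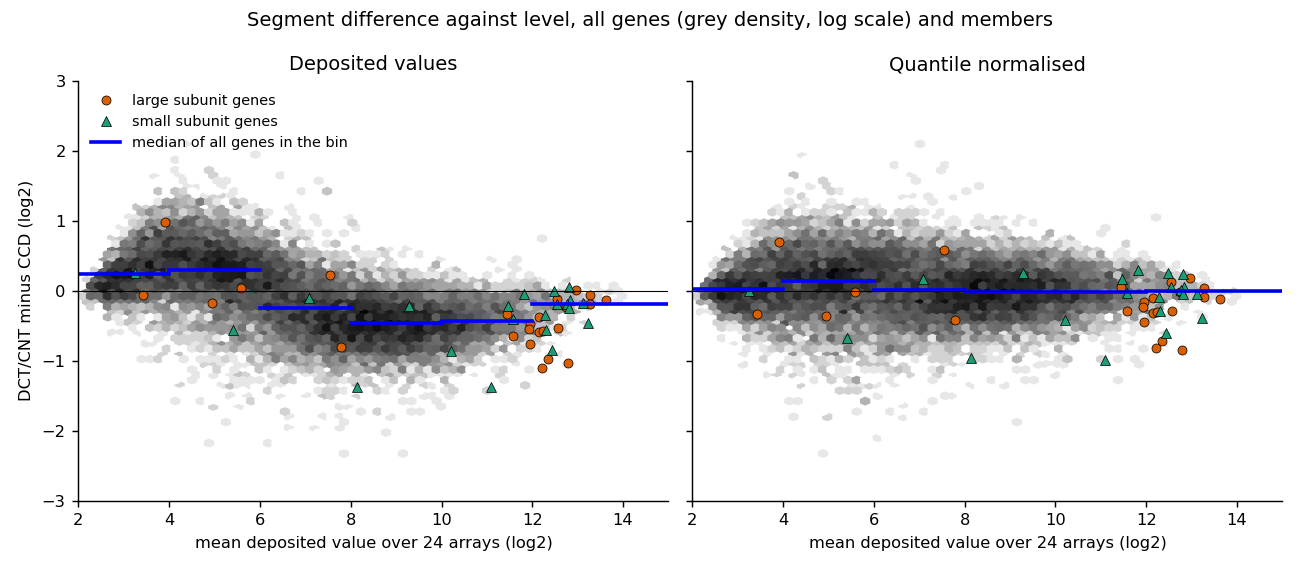
Segment difference (DCT/CNT minus CCD, log2 units, vertical axis) against mean deposited level over 24 arrays (log2, horizontal axis) in the deposited values (left) and after quantile normalisation (right). Grey shows the density of all 18194 genes on a log scale (the few differences beyond the axis limits are not drawn), blue lines are medians of all genes within a range of level, circles are large subunit genes and triangles small subunit genes; the blue lines of genes averaging 6 or more lie at -0.19 or below on the left and within 0.02 of 0 on the right.

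The largest differences among genes lower in DCT/CNT were those of Rps26, Rps4l, Rpl22, Rplp2 and Rpl7a, and all of them kept the call after quantile normalisation and after cyclic loess. Rps26, a small subunit protein that touches the mRNA upstream of the start codon, had a lowest, median and highest level of 10.28, 10.38 and 10.55 on the DCT/CNT arrays, against 11.61, 11.77 and 11.96 on the CCD arrays. The ranges did not overlap, and the DCT/CNT signal was 0.385 of the CCD signal (difference -1.38, SE 0.04, adjusted p = 7.44e-13, limma) and 0.506 of it after quantile normalisation (difference -0.98). Rps4l, a processed copy of Rps4x, had 7.07, 7.46 and 7.75 in DCT/CNT, against 8.62, 8.86 and 9.0 in CCD. Its ranges were likewise apart (difference -1.37, SE 0.07, adjusted p = 8.37e-11, and -0.96 after quantile normalisation).

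Rpl22, an RNA-binding protein near the exit of the peptide tunnel, had 11.54, 11.67 and 11.82 on the DCT/CNT arrays, against 12.69, 12.77 and 12.86 on the CCD arrays. Every DCT/CNT value was below every CCD value (difference -1.10, SE 0.04, adjusted p = 2.32e-12, and -0.82 after quantile normalisation), and its other bright probe set differed by -1.20 (-0.86 after quantile normalisation). Rplp2, an acidic protein of the stalk that receives elongation factors, had 12.11, 12.30 and 12.35 in DCT/CNT, against 13.19, 13.30 and 13.43 in CCD. Its signal in DCT/CNT was 0.49 of that in CCD (difference -1.03, SE 0.03, adjusted p = 1.51e-12, and -0.85 after quantile normalisation). Rpl7a, a large subunit protein encoded in the surfeit gene cluster, had 11.76, 11.84 and 11.94 in DCT/CNT, against 12.73, 12.81 and 12.92 in CCD, again without overlap (difference -0.98, SE 0.03, adjusted p = 2.22e-12, and -0.72 after quantile normalisation).

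Only 3 members were called higher in DCT/CNT in the deposited values, and their probe sets were dim. Rpl39l, a paralogue of the tunnel protein Rpl39 that is best known from mouse testis, had 4.05, 4.34 and 4.80 in DCT/CNT, against 3.13, 3.43 and 3.68 in CCD. The ranges did not overlap (difference 0.99, SE 0.07, adjusted p = 5.6e-09), and the call held after quantile normalisation (difference 0.70). Rpl39 itself had 7.52, 7.66 and 7.81 in DCT/CNT, against 7.34, 7.40 and 7.62 in CCD, and the ranges overlapped in the deposited values (difference 0.23, SE 0.04, adjusted p = 0.000201) but not after quantile normalisation (difference 0.59). Rps16 had 2.99, 3.36 and 3.79 in DCT/CNT, against 2.90, 3.13 and 3.35 in CCD (difference 0.26, SE 0.09, adjusted p = 0.0165), and its difference after quantile normalisation was 0.00 (adjusted p = 0.99). Leaving out ZT0 or ZT12, or adding proximal tubule and thick ascending limb markers as covariates, also ended the call of Rps16.

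**Figure D3:**
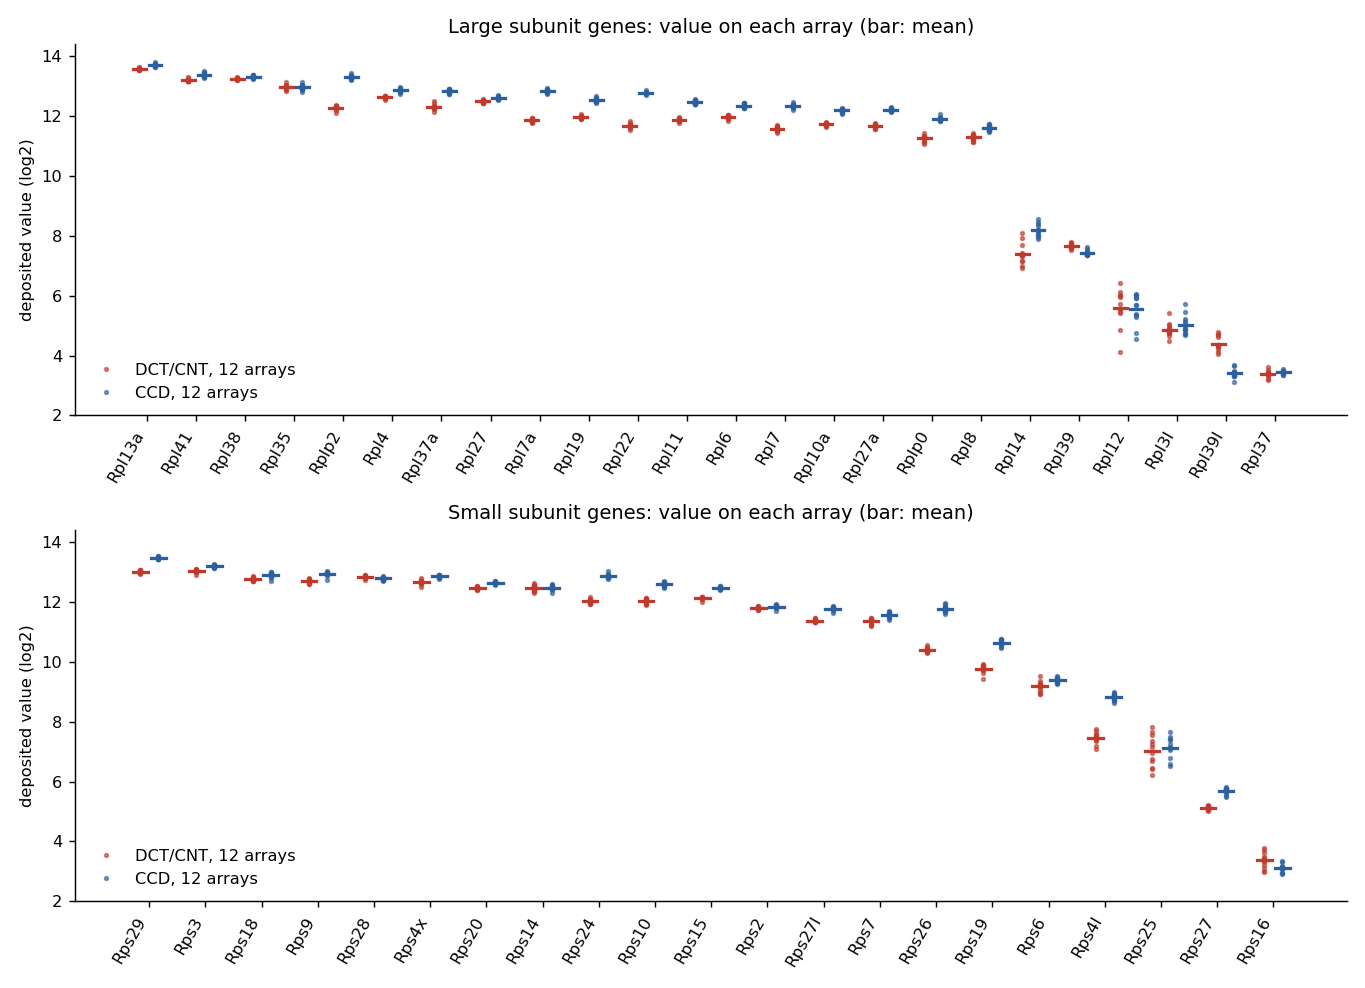
Level of each gene (deposited log2 values, vertical axis) on the 12 DCT/CNT arrays (red, left of each pair) and the 12 CCD arrays (blue, right), with a bar at the mean; large subunit above, small subunit below, ordered by mean level of the probe set. Rps26, Rpl22, Rplp2 and Rpl7a show separated red and blue points, whereas those of Rps25 run from 6.23 to 7.81 within DCT/CNT.

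The subunits were set side by side without a test, since genes on the same arrays are not replicates. In the deposited values 17 of 24 large subunit genes and 16 of 21 small subunit genes were lower in DCT/CNT, against 47.0% of all genes. Their medians were -0.35 and -0.21. Among genes averaging 10 or more, 16 of 18 large and 13 of 16 small subunit genes were lower, against 1908 of all 2334. After quantile normalisation 16 large and 8 small subunit genes were lower, against 29.6% of all genes. Higher were 4 large and 5 small subunit genes, against 36.0%, and the medians were -0.19 and -0.03. After cyclic loess the medians were -0.14 for the large subunit and 0.08 for the small subunit. The sign of the small subunit's median thus depended on the scaling. Over all genes the cyclic loess medians were 0.02 for those averaging 10 or more and 0.13 for those averaging 12 or more. Among genes averaging 10 or more, the medians were -0.50 for 18 large and -0.22 for 16 small subunit genes in the deposited values, and -0.19 and -0.04 after quantile normalisation. With all probe sets of a gene averaged the order of the subunits turned, with medians of -0.28 for the large and -0.38 for the small. Each subunit held a wide range, from -1.10 to 0.99 in the large and from -1.38 to 0.26 in the small. Set beside their start regions, the 28 members with a pyrimidine run had a median difference of -0.44 (-0.19 after quantile normalisation) and the 11 without had -0.17 (-0.02). The groups also differed in brightness, with median levels of 11.94 and 12.57, and no test was made.

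Within the large subunit, the stalk and the 5S ribonucleoprotein were lower in DCT/CNT on both scalings where bright probe sets measured them. Rplp0, the base of the stalk, had 11.04, 11.29 and 11.44 in DCT/CNT, against 11.83, 11.90 and 12.05 in CCD, with no overlap (difference -0.65, SE 0.04, adjusted p = 4.79e-10, and -0.28 after quantile normalisation). Rpl12, which joins the stalk to the ribosome, had a dim probe set whose pools disagreed by more than the segments (SD between pools 0.47, segment difference 0.04). Its SDs over the 12 arrays of a segment were 0.62 in DCT/CNT and 0.50 in CCD, and it was not called (adjusted p = 0.824, limma). Rpl11, which binds the 5S RNA together with Rpl5, had 11.76, 11.86 and 11.95 in DCT/CNT, against 12.39, 12.44 and 12.55 in CCD (difference -0.59, SE 0.03, adjusted p = 2.31e-10, and -0.31 after quantile normalisation).

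Around the tunnel exit the members went different ways. Beside Rpl22, Rpl19 was lower in DCT/CNT, with 11.90, 11.95 and 12.05 in DCT/CNT, against 12.43, 12.51 and 12.66 in CCD (difference -0.57, SE 0.03, adjusted p = 4.22e-10, and -0.29 after quantile normalisation). Rpl35 had 12.85, 12.98 and 13.11 in DCT/CNT and 12.81, 12.93 and 13.12 in CCD, ranges that overlapped nearly whole (difference 0.01, adjusted p = 0.733), and it was called higher after quantile normalisation (difference 0.18, adjusted p = 0.000175). Rpl8, which lies beside the peptidyl transferase centre, was lower in the deposited values (difference -0.32, SE 0.04, adjusted p = 6.15e-06) but not called after quantile normalisation, where its difference was 0.06.

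In the small subunit, the proteins that line the path of the mRNA differed less than Rps26. At the entry, Rps3 and Rps9 were lower in DCT/CNT in the deposited values (differences -0.17 and -0.24) and not called after quantile normalisation (-0.04 and -0.05), and after cyclic loess they stood at 0.13 and 0.08. Another bright probe set of Rps9, averaging 11.46, differed by -0.74 in the deposited values and by -0.37 after quantile normalisation. Rps2, also at the entry, had 11.72, 11.79 and 11.86 in DCT/CNT, against 11.70, 11.83 and 11.94 in CCD. It was not called in the deposited values (adjusted p = 0.287) and higher in DCT/CNT after quantile normalisation, without overlap of the arrays (difference 0.30, adjusted p = 1.43e-06). At the exit, Rps14 and Rps28 behaved like Rps2, with differences of 0.00 and 0.05 that were not called in the deposited values and of 0.25 and 0.25 that were called after quantile normalisation. Of the 3 proteins listed at the exit, Rps26 was thus called lower on all scalings run. With the probe sets used, Rps14 and Rps28 were called lower on none. Another bright probe set of Rps28, averaging 12.29, differed by -0.26 in the deposited values (SE 0.03) and by 0.005 after quantile normalisation. Its remaining probe set, averaging 12.78, went with the one used (0.07, and 0.27 after quantile normalisation).

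Among the genes mutated in Diamond-Blackfan anaemia, an inherited failure of red cell formation, 11 of 19 were measured. Of these, 9 were lower and 0 higher in DCT/CNT in the deposited values, against 47.0% and 30.4% of all genes. After quantile normalisation 7 were lower and 4 higher, against 29.6% and 36.0% of all genes. The list medians were -0.55 and -0.31. Of the 11 genes 10 averaged 10 or more. Among all 2334 genes of that brightness 1908 were lower and 123 higher, and 870 and 820 after quantile normalisation. Rps19, the gene most often affected, had 9.41, 9.79 and 9.93 in DCT/CNT, against 10.46, 10.64 and 10.76 in CCD (difference -0.86, SE 0.05, adjusted p = 3.05e-10, and -0.41 after quantile normalisation). Rps24 had 11.91, 12.03 and 12.16 in DCT/CNT, against 12.77, 12.87 and 13.02 in CCD (difference -0.84, SE 0.04, adjusted p = 1.49e-11, and -0.60 after quantile normalisation). Neither gene's ranges overlapped. The 2 members of the list that were not called in the deposited values were Rps28 and Rpl35, described above.

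Ribosomal protein genes serve widely as reference genes in quantitative PCR, and 4 of 5 such genes were measured. All 4 were lower in DCT/CNT in the deposited values, with Rplp0 and Rpl19 at -0.65 and -0.57 and Rpl13a and Rps18 at -0.13 each (SE 0.03 each, adjusted p = 0.00138 and 0.0024). All 4 averaged 10 or more, and 1908 of the 2334 genes of that brightness were lower, against 47.0% of all genes. After quantile normalisation Rpl13a stood at -0.11 and Rps18 at 0.06, and Rps18 was not called. After cyclic loess both were called higher, by 0.13 and 0.18, against a median of 0.13 over all genes averaging 12 or more. Rpl13a had 13.52, 13.57 and 13.64 in DCT/CNT and 13.63, 13.70 and 13.79 in CCD, ranges that met at their ends. Other probe sets of Rpl13a, averaging 10.80 and 10.78, gave -0.45 and -0.09, and -0.03 and 0.33 after quantile normalisation.

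Besides Rpl39l and Rps4l, 2 paralogues were measured. Rps27l, a p53-inducible relative of Rps27, had 11.31, 11.36 and 11.46 in DCT/CNT, against 11.63, 11.78 and 11.85 in CCD, with no overlap (difference -0.40, SE 0.03, adjusted p = 3.88e-08), and after quantile normalisation the difference was -0.03 and not called. Rpl3l, the form of Rpl3 known from striated muscle, had 4.50, 4.82 and 5.42 in DCT/CNT and 4.67, 4.94 and 5.72 in CCD, and was not called in the deposited values (difference -0.17, SE 0.12, adjusted p = 0.2). After quantile normalisation it was called lower (difference -0.36, adjusted p = 0.00955).

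Probe sets of the same gene did not always give the same difference. For 18 members with at least 2 probe sets averaging 10 or more, the lowest and highest differences lay a median of 0.20 apart. The gap exceeded 0.5 for 4 of them, Rps10, Rps15, Rps18 and Rps9, and 3 had probe sets of opposite sign. After quantile normalisation 4 had probe sets of opposite sign, among them Rps7. For Rps7 the probe set used gave -0.21 and the other -0.56, and 0.17 and -0.15 after quantile normalisation. For Rps18 the probe set used gave -0.13, and the others averaging 10 or more gave -0.99 and -0.03 (0.06, -0.60 and 0.23 in the same order after quantile normalisation). For Rps10 the 5 bright probe sets ran from -1.31 to -0.55, all lower in DCT/CNT, and from -0.95 to -0.28 after quantile normalisation. Taking the mean of all probe sets of a gene gave 28 members lower and 4 higher, against 45.4% and 32.0% of all genes in that setting.

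The members' median difference was below 0 at each of the 6 times on both scalings. The members' median difference was -0.32 at ZT0, -0.35 at ZT4, -0.38 at ZT8, -0.30 at ZT12, -0.28 at ZT16 and -0.27 at ZT20, and both DCT/CNT pools lay below both CCD pools for 32 to 36 of the 45 genes and above for 3 to 6. Over all genes the medians ran from -0.18 at ZT8 to -0.10 at ZT20, with both pools below for 42.8% to 47.6% and above for 24.5% to 32.1%. After quantile normalisation the medians ran from -0.20 at ZT8 to -0.06 at ZT12, and both pools lay below for 21 to 30 genes and above for 10 to 14, against 29.3% to 30.6% and 32.5% to 37.6% of all genes.

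Rhythm over the day was scarce. A 24 h cosine curve was fitted to each segment, and its amplitude is the distance from mean to peak in log2 units. In DCT/CNT 1 of the 45 members was called rhythmic, against 6.57% of all genes; in CCD 0 were called, against 2.47%; and 0 members differed in rhythm between the segments, against 0.0110%. At an unadjusted p under 0.05 the counts by limma were 5 in DCT/CNT, 5 in CCD and 0 for the rhythm difference, against 24.5%, 14.2% and 8.89% of all genes. Median amplitudes were 0.05 in DCT/CNT and 0.07 in CCD for the members, 0.13 and 0.10 for all genes, and 0.06 in both segments for the 381 genes averaging 12 or more. A member's median amplitude thus corresponds to a ratio of peak to trough of 1.07 in DCT/CNT and 1.10 in CCD, and 35 members in DCT/CNT and 38 in CCD had amplitudes under 0.1.

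The called gene was Rps6, whose protein is phosphorylated by S6 kinase when mTOR is active. Its 2 DCT/CNT pools were at 9.35 and 9.53 at ZT0, 9.21 and 9.30 at ZT4, 8.94 and 9.24 at ZT8, 9.0 and 8.92 at ZT12, 9.17 and 9.16 at ZT16, and 9.22 and 9.07 at ZT20. Both pools at ZT0 lay above all 10 later pools. The fitted peak was at ZT 0.221 with an amplitude of 0.19 (SE 0.05, adjusted p = 0.049), a ratio of peak to trough of 1.29. In CCD the same gene ranged from 9.26 to 9.51 with an amplitude of 0.06 (SE 0.05, adjusted p = 0.846). Its segment difference was -0.21 in the deposited values (adjusted p = 0.000926) and 0.25 after quantile normalisation (adjusted p = 0.000234), and the difference in rhythm was not called (adjusted p = 0.684). The DCT/CNT call was lost in 20 of 24 omissions of a single array, with adjusted p up to 0.155, and in 5 of 6 omissions of a time, with adjusted p up to 0.332. It was also lost after quantile normalisation (adjusted p = 0.0949) and with the gene's probe sets averaged (0.791).

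**Figure D4:**
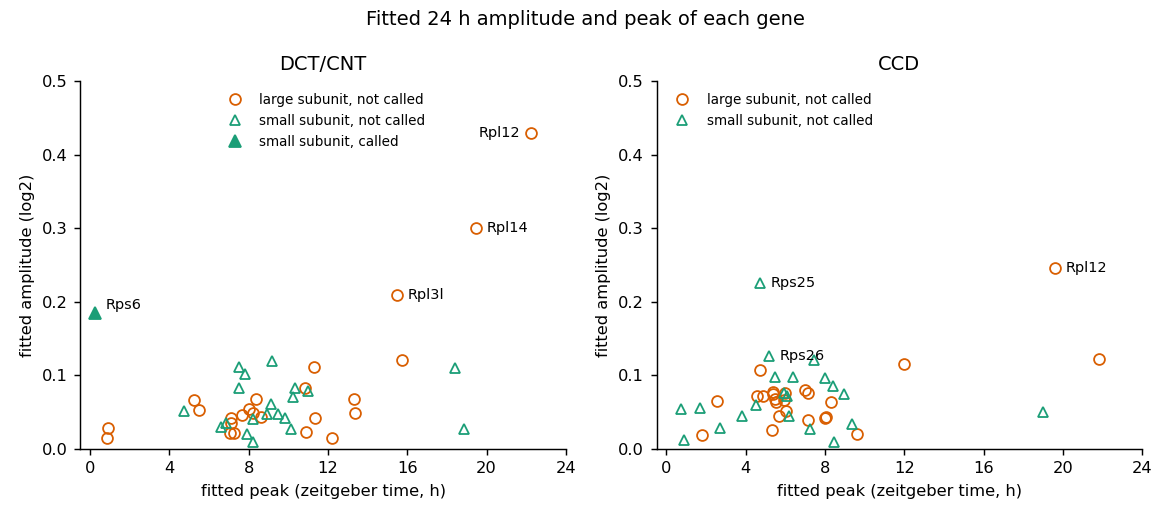
Fitted 24 h amplitude (log2 units, vertical axis) against fitted peak (zeitgeber time in h, horizontal axis) for each gene in DCT/CNT (left) and CCD (right); circles are large subunit genes, triangles small subunit genes, and the filled triangle is the called gene Rps6. Amplitudes above 0.2 belong to Rpl12, Rpl14 and Rpl3l in DCT/CNT and to Rpl12 and Rps25 in CCD, none of them called.

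The largest amplitudes that were not called in each segment belonged, apart from Rps26, to probe sets averaging under 8, with SDs between pools of 0.18 to 0.47, against 0.08 for Rps26. In DCT/CNT they were those of Rpl12 (0.43, SE 0.21, adjusted p = 0.36), Rpl14 (0.30, SE 0.10, adjusted p = 0.132) and Rpl3l (0.21, SE 0.11, adjusted p = 0.399). The pools of Rpl12 at ZT8 were at 4.86 and 4.12 in DCT/CNT and at 4.56 and 5.68 in CCD. In CCD the largest were Rpl12 (0.25, SE 0.21, adjusted p = 0.845), Rps25 (0.23, SE 0.18, adjusted p = 0.821) and Rps26 (0.13, SE 0.04, adjusted p = 0.159). Rps26 in CCD ran from 11.61 and 11.69 at ZT16 to 11.96 and 11.86 at ZT4, a step smaller than its distance from DCT/CNT at any time.

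Between ZT4 and ZT10 fell the fitted peaks, called or not, of 25 members in DCT/CNT and 34 in CCD, that is 55.6% and 75.6%, against 23.1% and 30.1% of all genes. Among genes averaging 10 or more the shares were 70.6% and 82.4% for members and 32.3% and 27.0% for all genes. Each gene was then set against its own mean in the segment, and the median of these deviations was taken over the 45 genes on each array. In CCD the 2 pools were at 0.04 and -0.01 at ZT0, 0.06 and 0.02 at ZT4, 0.06 and 0.08 at ZT8, 0.00 and -0.02 at ZT12, -0.07 and -0.01 at ZT16, and -0.04 and -0.05 at ZT20. On the ZT8 arrays 41 and 33 genes stood above their own mean, and on the ZT20 arrays 5 and 8.

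In DCT/CNT the same medians were -0.03 and -0.05 at ZT0, 0.02 and 0.05 at ZT4, 0.00 and 0.05 at ZT8, 0.00 and 0.02 at ZT12, -0.02 and 0.01 at ZT16, and -0.06 and 0.01 at ZT20. The pools of ZT0 were below those of ZT4, and at ZT8 and ZT20 the 2 pools of a time were apart by more than most steps between times. All genes together gave medians between -0.04 and 0.03. Genes averaging 10 or more gave 0.02 and 0.03 at ZT0, 0.03 and 0.04 at ZT4, and -0.03 and 0.00 at ZT20 in DCT/CNT. In CCD they stayed between -0.01 and 0.02. Genes on an array share its RNA and its normalisation, so this course is a description of the arrays without a test. Its highest and lowest points were 0.08 and -0.07. The SD of the members' median between the 2 pools of a time ran from 0.003 (CCD, ZT20) to 0.045 (DCT/CNT, ZT20). For single members the median SD between pools was 0.05.

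**Figure D5:**
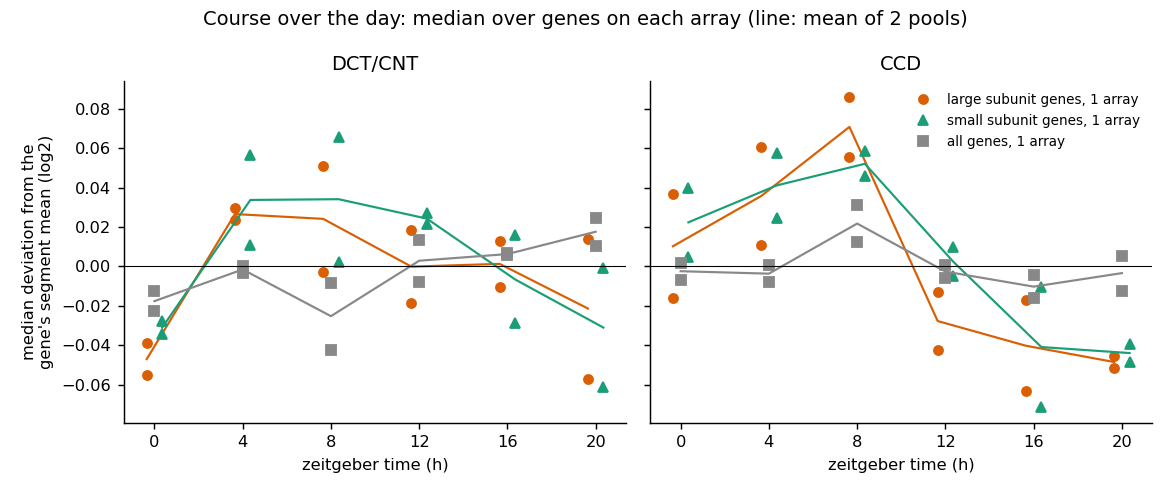
Median over genes of the deviation from each gene's own segment mean (log2 units, vertical axis) by zeitgeber time (h, horizontal axis) in DCT/CNT (left) and CCD (right), with a point per array and lines through the mean of 2 pools; circles are large subunit genes, triangles small subunit genes and squares all genes. In CCD the ribosomal protein genes stand above 0 at ZT4 and ZT8 and below 0 at ZT16 and ZT20.

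Genes that work with the ribosome were counted in the same fits. The shares of all genes called were 47.0% lower and 30.4% higher in DCT/CNT in the deposited values and 29.6% and 36.0% after quantile normalisation. Rhythm was called for 6.57% in DCT/CNT and 2.47% in CCD. Of the 2334 genes averaging 10 or more, 1908 were called lower and 123 higher, and 870 and 820 after quantile normalisation. That bright were 3 of 6 further ribosomal proteins, 17 of 17 elongation factors and others, and 11 of 17 initiation factors. So were 9 of 29 biogenesis genes and 2 of 18 genes of RNA polymerase I and its control. Of 6 measured ribosomal proteins outside the symbol rule, 5 were lower in DCT/CNT in the deposited values and 4 after quantile normalisation, where 1, the small subunit protein Rpsa, was higher. Rpl22l1, the paralogue of Rpl22, averaged 9.19 ± 0.11 in DCT/CNT and 10.54 ± 0.14 in CCD (SD, n = 12 each; difference -1.35, SE 0.04, adjusted p = 1.54e-12, and -0.90 after quantile normalisation). Rpl22 and its paralogue were thus both lower in DCT/CNT. Rps3a1 differed by -0.65 (-0.49 after quantile normalisation) and Rpl7l1 by -0.60 (-0.15).

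Of 17 elongation factors and other genes with pyrimidine-start mRNAs, 15 were lower and 1 higher in the deposited values, with a median of -0.34, and 7 were lower and 4 higher after quantile normalisation, with a median of -0.08. Eif3k, Pabpc1 and Hnrnpa1 differed by -0.84, -0.80 and -0.73, and by -0.43, -0.34 and -0.33 after quantile normalisation. Of this list, rhythm calls went to 5 genes in DCT/CNT and to 1 in CCD. Eif4b, a cofactor of the initiation helicase, was rhythmic in both, with amplitudes of 0.26 (peak ZT 8.34, adjusted p = 0.00227) in DCT/CNT and 0.21 (peak ZT 8.27, adjusted p = 0.0185) in CCD, and Pabpc1, the poly(A)-binding protein, in DCT/CNT with an amplitude of 0.24 (peak ZT 9.72, adjusted p = 0.0241).

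Of 17 translation initiation factors, 16 were lower and 1 higher in the deposited values and 4 lower and 3 higher after quantile normalisation, with medians of -0.44 and -0.01. Eif4a1, Eif4e and Eif3m differed by -0.63, -0.62 and -0.60, and by -0.22, -0.16 and -0.14 after quantile normalisation. Eif4e, which binds the mRNA cap, and Eif5 were the 2 called rhythmic in DCT/CNT, with amplitudes of 0.17 and 0.15 (adjusted p = 0.0284 and 0.0442). Of 29 ribosome biogenesis genes, 24 were lower and 2 higher in the deposited values, and 11 lower and 10 higher after quantile normalisation, with medians of -0.40 and 0.03. Nop10, Gar1 and Fbl, which modify ribosomal RNA, differed by -0.91, -0.73 and -0.68, and by -0.57, -0.28 and -0.21 after quantile normalisation. Nop14 was the 1 rhythmic gene of this list in DCT/CNT (amplitude 0.32, peak ZT 4.12, adjusted p = 0.0135).

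Of 18 genes of RNA polymerase I and its control, 15 were lower in DCT/CNT in the deposited values and 0 higher, and 8 were lower and 5 higher after quantile normalisation. Myc, a transcription factor that drives ribosome production, averaged 5.36 ± 0.24 in DCT/CNT and 6.92 ± 0.42 in CCD (difference -1.57, SE 0.07, adjusted p = 2.5e-11, and -1.51 after quantile normalisation). It was called rhythmic in CCD, with an amplitude of 0.46 and a peak at ZT 19.0 (SE 0.08, adjusted p = 0.012), and was not called in DCT/CNT (amplitude 0.27, adjusted p = 0.115). Polr1d, a polymerase subunit, and Ubtf, which binds the ribosomal RNA genes, differed by -1.17 and -1.07, and by -0.73 and -0.61 after quantile normalisation. Maf1, a repressor of RNA polymerase III, was rhythmic in DCT/CNT (amplitude 0.31, peak ZT 7.80, adjusted p = 0.00908).

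Markers of neighbouring cells were read from the same arrays. The mean level of the 18 proximal tubule markers ranged from 6.87 to 8.37 on the DCT/CNT arrays and from 6.95 to 8.48 on the CCD arrays, and that of 10 thick ascending limb markers from 6.73 to 7.84 and from 6.16 to 7.61. The 9 leukocyte markers ranged from 6.84 to 7.30 in DCT/CNT and from 6.56 to 7.11 in CCD, and the 10 vascular and stromal markers from 7.48 to 8.0 and from 7.16 to 7.61. Of the proximal tubule list 2 markers were called higher and 6 lower in DCT/CNT, of the thick ascending limb list 6 and 3, of the leukocyte list 2 and 0, and of the vascular and stromal list 5 and 2, against 30.4% of all genes higher and 47.0% lower. After quantile normalisation the counts higher and lower were 3 and 3, 8 and 2, 5 and 0, and 8 and 1 in the same order of lists, against 36.0% and 29.6% of all genes. The part of leukocyte, vascular and stromal cells in the ribosomal protein differences was not tested.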

How the data were processed

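Per the labels, RNA pools of microdissected tubules were amplified and hybridised to mouse expression arrays, and the authors deposited a table of log2 RMA values for 45101 probe sets, credited to RMA in the submitters' processing notes with no version. The values were used as deposited. Probe sets naming a single symbol (34958) were joined to 18194 genes, with the brightest probe set kept per gene, and members were found by symbol pattern. limma 3.58.1 in R 4.3.3 fitted group means for the segment difference and a 24 h cosinor per segment for rhythm, with Benjamini-Hochberg adjustment over all genes. The code was tested on simulated data. Members, role lists and pathway lists were chosen with earlier results of these data known. Named genes were the 5 largest called differences each way, called rhythms with the 3 largest other amplitudes per segment, the role lists and paralogues, and the 3 smallest adjusted p per pathway list and comparison. Alternatives were other normalisations, probe set rules, a filter on dim genes, array weights, a replicate block, marker covariates, another rhythm test, and omission of each array or time. Sequences come from RefSeq (GRCm38.p6). The number of arrays limits the precision.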

Additional observations from a re-analysis of the deposited data

How the results depend on the processing

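Against 33 members lower and 3 higher in DCT/CNT, cyclic loess gave 20 and 17, quantile normalisation 24 and 9, and genes above the median brightness alone 33 and 1 of 39, since Rpl39l and Rps16 are then not tested. Every other setting stayed within 1.5 times of both counts, and omitting single arrays gave 33 to 34 lower and 3 to 3 higher. The large subunit median of -0.35 was -0.19 after quantile normalisation, -0.14 after cyclic loess, -0.50 without dim genes, -0.46 without _x_at and _s_at probe sets, -0.28 with probe sets averaged and -0.40 with the marker covariates, and -0.37 to -0.33 without single arrays. The small subunit median of -0.21 was -0.0342, 0.0788, -0.29 and -0.38 after quantile normalisation, after cyclic loess, without those probe sets and with probe sets averaged, -0.24 without ZT0, and -0.24 to -0.20 without single arrays. As within-array percentiles the medians were lower by 0.53 and 0.02 points. Differences whose sign turned after quantile normalisation were those of Rpl12 (-0.0170), Rpl27 (0.13), Rpl38 (0.0452), Rpl8 (0.0560), Rps14 (0.25), Rps18 (0.0569), Rps2 (0.30), Rps20 (0.0534), Rps25 (0.17), Rps4x (0.0149), Rps6 (0.25) and Rps7 (0.17). After cyclic loess they were those of Rpl12 (-0.0684), Rpl13a (0.13), Rpl27 (0.21), Rpl38 (0.22), Rpl4 (0.0921), Rpl41 (0.0977), Rpl8 (0.0667), Rps14 (0.34), Rps18 (0.18), Rps2 (0.33), Rps20 (0.15), Rps25 (0.17), Rps3 (0.13), Rps4x (0.13), Rps6 (0.25), Rps7 (0.18) and Rps9 (0.0788). With probe sets averaged they were Rpl27 (0.00497), Rpl35 (-0.13), Rps28 (-0.0447), Rps4x (0.14) and Rps6 (0.13), without _x_at and _s_at probe sets Rpl35 (-0.16), and with the covariates Rpl35 (-0.00163), Rpl37 (0.0573) and Rps14 (0.0291). Uncalled differences near 0 also turned without a time, for Rpl12 without ZT0 (-0.0795), ZT4 (-0.00745) or ZT12 (-0.0234), Rps14 without ZT0 (0.0156) or ZT16 (0.0171) and Rpl35 without ZT16 (-0.00737), and without single arrays for Rpl12 (-0.0629 to 0.15), Rps14 (-0.0168 to 0.0135) and Rps25 (-0.22 to 0.0111). The cause of these changes was not tested. The count of 1 rhythmic gene in DCT/CNT was 2 without dim genes (Rps6 and Rplp0) and 0 after quantile normalisation, after cyclic loess, with the replicate block, with array weights, with the covariates, in the segment fitted alone, by the F test over 6 times and without ZT4, ZT8, ZT12 or ZT16. It was 0 to 1 without single arrays, and the gene was Rps9 without _x_at and _s_at probe sets or with probe sets averaged and Rpl14 without ZT0. Rhythm in CCD and the rhythm difference counted 0 members throughout, 0 to 0 without single arrays. Pools of the same number in both segments deviated together with correlations of -0.03 to 0.09, so the numbers only name the pools, and the replicate block gave 33 members lower and 3 higher. Rhythm calls over all genes numbered 1195 for DCT/CNT and 449 for CCD, against 25 and 42 by the F test, 788 and 846 with array weights, 577 and 282 with the covariates, 565 to 788 and 132 to 255 without single times, and 226 and 456 with each segment fitted alone.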
